A study of Bos taurus with 25 samples.

Results

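Sestrin 2 (SESN2) and 7 further genes of the cellular response to amino acid shortage were followed in liver and mammary gland biopsies of lactating cows given vitamins B9 and B12. The genes were ATF4, ATF3, DDIT3, DDIT4, TRIB3, ASNS and CHAC1, and they were found through the accession that the array gives for each probe. They had 15 of the 43653 different non-control probes, or 8 of 27841 gene names. SESN2, ATF3 and CHAC1 had 1 probe each, DDIT3, DDIT4 and ASNS 2, and ATF4 and TRIB3 3. A gene is described by its brightest probe in a tissue, and values are log2 normalized intensities unless another scale is named. Levels of different probes are not comparable with each other.

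The cows were multiparous Holsteins that received weekly intramuscular injections of 5 mL from 3 weeks before the expected calving. The injections held saline (Control), 320 mg of folic acid (B9), 10 mg of cyanocobalamin (B12) or both vitamins (B9 + B12). All cows were fed the same close-up and lactation diets, and biopsies were taken 64 ± 3 days after calving. Each array held the RNA of 1 cow in 1 tissue. The liver was measured in 3 Control, 3 B9, 4 B12 and 2 B9 + B12 cows, and the mammary gland in 3, 3, 4 and 3 cows. Of the 13 cows, 12 gave both tissues, and all 25 arrays lay on 8 slides. The 3 treatments of a tissue share the same Control arrays, so that their differences from Control are not independent of each other.

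When amino acids run short or proteins fold badly, kinases such as EIF2AK4 and EIF2AK3 phosphorylate the translation factor eIF2alpha, general protein synthesis slows, and the mRNA of the transcription factor ATF4 is translated more. ATF4 then raises the genes of amino acid synthesis, uptake and tRNA charging, together with the stress factors ATF3, DDIT3 and TRIB3 and the glutathione-degrading enzyme CHAC1. SESN2 binds leucine and holds back mTORC1, the kinase complex that drives protein synthesis, and DDIT4 restrains the same complex by another route. The liver handles most of the amino acids that arrive from the gut, while the lactating mammary gland draws large amounts of them from the blood for milk protein.

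The arrays fitted their tissue labels. All 7 hepatocyte markers on the array were higher in the liver, and all 5 mammary secretory markers were higher in the gland. The median signal over background was 2.24 to 10.4 on the liver arrays (median 7.003) and 2.93 to 5.06 on the mammary arrays (median 3.79). The liver arrays of cow 57 (B9) and cow 32 (B9 + B12) stood apart, each with a median correlation of 0.971 with the other liver arrays against 0.988 to 0.991 for the rest. On the liver arrays the summed level of the mammary markers, mostly caseins and whey proteins, was 9.82 to 9.88 in Control, 10.3 to 12.2 in B9, 9.17 to 13.6 in B12 and 10.68 to 11.03 in B9 + B12, as compared to 20.9 on the mammary arrays of the Control cows. All 5 markers were well above background on all liver arrays. The 7 hepatocyte markers summed to 20.7 to 20.9 on every liver array. Each tissue was normalized to equal quantiles, so that sums of very bright genes can vary little. A constant sum therefore does not show equal cell numbers. Fewer cells of a type and less RNA per cell cannot be told apart in such biopsies.

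No member of the group passed the test in any comparison with Control. With limma and a false discovery rate of at most 0.05 over all probes together with a 2-fold change, 0 of the 8 genes were called under each treatment in each tissue. Over all genes the same rule called 0% under B9, 0.00359% under B12 and 0% under B9 + B12 in the liver, and 0%, 0% and 0% in the mammary gland. At an unadjusted limma P value under 0.05, 1, 3 and 0 of the 8 genes passed in the liver under B9, B12 and B9 + B12, beside 3.15%, 1.86% and 6.08% of all genes. The 3 under B12 include SESN2, which the study had picked in this comparison from the same arrays. In the mammary gland 0 of 8 passed under each treatment, beside 2.56%, 2.37% and 1.99% of all genes. A Cyber-T test, run as an alternative on the same values, also called 0 of the 8 genes in all 6 comparisons. The differences described next are therefore the ones nearest to a change and failed the correction.

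**Figure D1:**
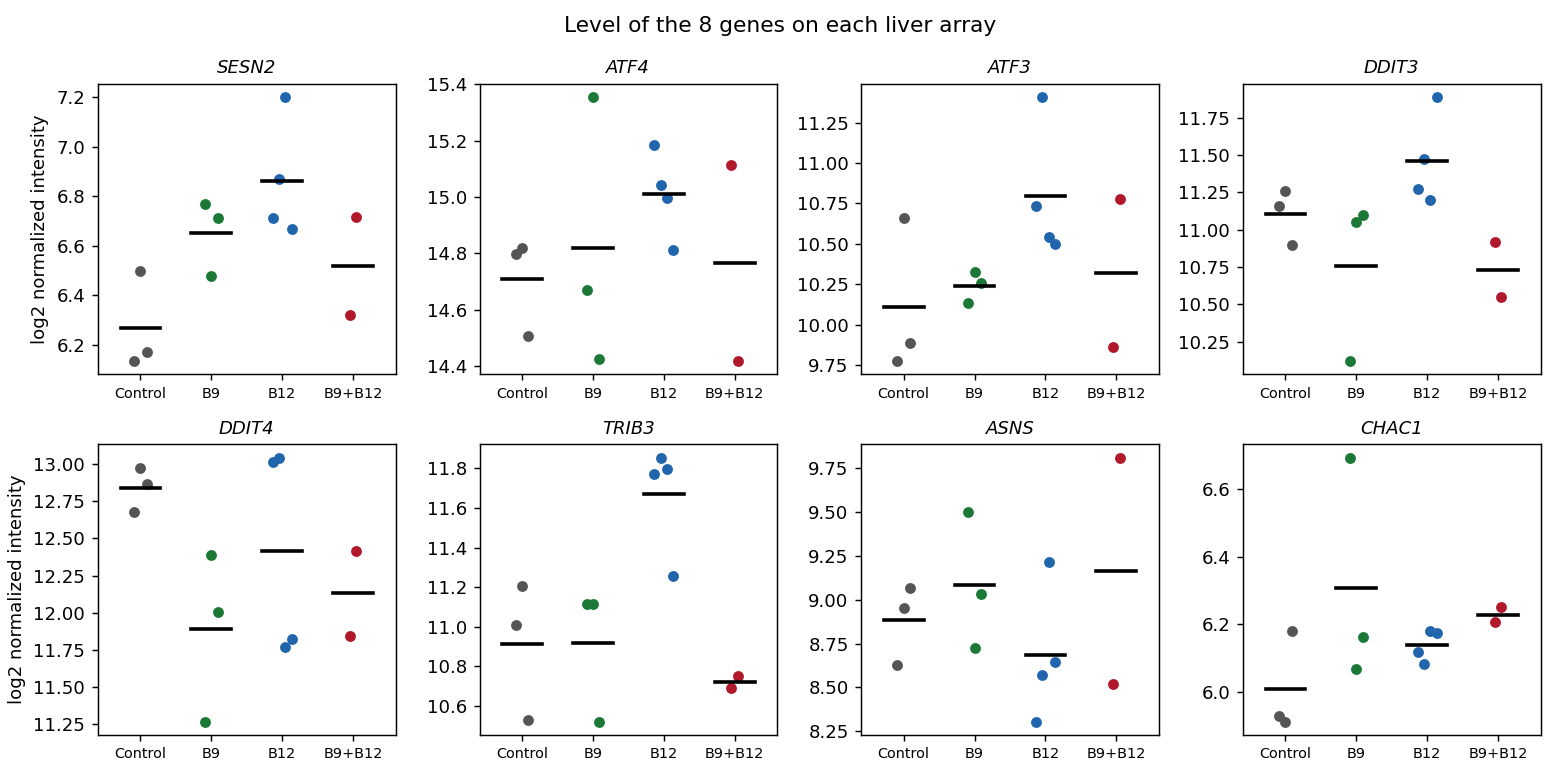
Log2 normalized intensity of the brightest probe of each gene (y axis) on the 12 liver arrays, by treatment (x axis). Points are cows and bars are group means. The B12 arrays of SESN2 (6.67 to 7.20) and of TRIB3 (11.26 to 11.85) lie above all Control arrays, and those of DDIT4 under B9 (11.27 to 12.39) lie below them.

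SESN2, the leucine-binding inhibitor of mTORC1, had liver levels of 6.14, 6.17 and 6.50 in the Control cows. Under B12 the levels were 6.67, 6.71, 6.87 and 7.20, so that the groups did not overlap. The difference was 0.60 on the log2 scale (SE 0.17, 95% interval 0.23 to 0.96), or 1.51-fold, with a limma P value of 0.00433 and an adjusted P value of 1. The exact permutation test over the 7 arrays gave a two-sided P value of 0.0286, the smallest that 4 against 3 arrays can give. The study had picked SESN2 in this comparison from the same arrays, so that its direction here is no independent evidence.

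Under B9 the liver levels of SESN2 were 6.48, 6.71 and 6.77, and 2 of the 3 arrays lay above all Control arrays. The difference was 0.38 (SE 0.18, limma adjusted P = 0.891). With both vitamins the levels were 6.32 and 6.72, and the difference was 0.25 (SE 0.20, 95% interval -0.19 to 0.69, limma adjusted P = 0.681). Without cow 38 the difference was 0.45 and without cow 32 it was 0.051, so that the place of the B9 + B12 group among the others rests on 1 array. The interaction of B9 with B12 was -0.73 for SESN2 (SE 0.26, 95% interval -1.30 to -0.16, limma adjusted P = 1.00). For TRIB3 it was -0.95 (SE 0.33, limma adjusted P = 1.00). These 2 of the 8 genes had an unadjusted P value under 0.05 and were named after their values were seen, and 3.55% of all genes passed that limit for the liver interaction. The rule with a 2-fold change called 0 of the 8 genes and 0% of all genes.

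TRIB3, a pseudokinase that ATF4 induces and that in turn dampens ATF4 activity, had liver levels of 10.53, 11.01 and 11.21 in Control. Under B12 the levels were 11.26, 11.77, 11.79 and 11.85, all above the Control arrays. The difference was 0.75 (SE 0.21, unadjusted limma P = 0.00465, adjusted P = 1, exact permutation P = 0.0571). Under B9 the levels were 10.52, 11.12 and 11.12, which overlapped with Control, and with both vitamins 10.69 and 10.75, within the Control range. The other 2 TRIB3 probes also had all B12 arrays above Control, with differences of 0.74 (SE 0.23) and 0.31 (SE 0.11) and a limma adjusted P of 1. The dimmest of them, at 5.61 to 5.75 in Control, also had all B9 arrays above Control (5.98 to 6.26), with a difference of 0.42 (SE 0.12, limma adjusted P = 0.891, exact permutation P = 0.1).

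ATF3, a stress-induced transcription factor, had liver levels of 9.78, 9.89 and 10.66 in Control and of 10.50, 10.54, 10.73 and 11.41 under B12. The groups overlapped through the Control array of cow 43. The difference was 0.69 (SE 0.29, unadjusted limma P = 0.0371, adjusted P = 1, exact permutation P = 0.143). SESN2, TRIB3 and ATF3 were the 3 genes under an unadjusted P value of 0.05 with B12 in the liver. SESN2 and TRIB3 were the 2 whose B12 arrays did not overlap with Control, beside 4.99% of all genes.

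The summed casein and whey protein level on the B12 liver arrays of cows 52, 40, 37 and 36 was 9.17, 11.2, 13.2 and 13.6. Cow 52 had less of it than any Control cow, with 6.71 for SESN2 and 11.77 for TRIB3. The part of these markers in the differences was not tested. On 2 slides a B12 and a Control liver array lay side by side. Within those slides SESN2 was 0.73 and 0.70 higher under B12, and TRIB3 was 0.84 and 0.59 higher. ATF3 was 1.63 higher on the first of them and differed by -0.12 on the second. Over the 12 liver arrays, SESN2 had a correlation of -0.60 with the signal over background of the array, and the part of background in its differences was not tested. Without the Control array of cow 43, the liver array with the highest SESN2, TRIB3 and ATF3 in that group, 5 of the 8 genes instead of 2 had B12 arrays on 1 side of the Control arrays, beside 13.2% of all genes instead of 4.99%. Leaving out the highest Control array favours such a count. With any other single array of this comparison left out it was 2 or 3, beside 7.84% to 12.3% of all genes.

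DDIT4, which restrains mTORC1 through the TSC complex and responds to energy and oxygen supply and to glucocorticoids, had lower means than Control in the liver under all 3 treatments. Its Control levels were 12.68, 12.86 and 12.97. Under B9 they were 11.27, 12.01 and 12.39, and with both vitamins 11.84 and 12.42, so that neither group overlapped with Control. The difference was -0.95 under B9 (SE 0.39, unadjusted limma P = 0.0342, adjusted P = 0.891, exact permutation P = 0.1). Under B9 + B12 it was -0.71 (SE 0.44, limma adjusted P = 0.664, exact permutation P = 0.1). An exact permutation P value of 0.1 is the smallest that 3 against 3 or 2 against 3 arrays can give. Under B12 alone the levels spread over 11.77, 11.82, 13.01 and 13.04, that is, as low as the B9 arrays in 2 cows and above every Control array in the other two. The low levels were those of cows 37 and 36, in which the summed casein and whey protein level was 13.2 and 13.6, and the high ones those of cows 52 and 40, in which it was 9.17 and 11.2. It was 12.2 in cow 57, which had the lowest DDIT4 under B9, and 9.82 to 9.88 in Control. The order did not hold throughout, since cow 38 (B9 + B12) had 11.03 with a DDIT4 level of 11.84, below that of cow 40, and cow 39 (B9) had 10.3 with a DDIT4 level of 12.01. The part of these markers in the DDIT4 differences was not tested.

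DDIT4 was also measured by a dimmer probe, which gave 11.49, 11.66 and 11.95 in Control, 10.30, 10.73 and 11.04 under B9 and 10.46 and 11.47 under B9 + B12, again without overlap. The lowest B9 level of both probes came from cow 57, whose liver array stood apart. Without the arrays of cows 57 and 32 the DDIT4 difference under B9 was -0.64 and that under B9 + B12 was -0.99. Without cow 38 the difference under B9 + B12 was -0.42. Without cow 57, without cow 39 or without the Control cow 42, 0 of the 8 genes had an unadjusted P value under 0.05 with B9, while the DDIT4 difference was -0.64, -1.01 and -0.94. Within a slide, DDIT4 differed by -1.597 under B9 in 1 pair of arrays and by -1.02 and -0.56 under B9 + B12 in 2 pairs.

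By the brightest probe, DDIT4 was the single gene of the 8 whose B9 liver arrays did not overlap with Control, beside 8.23% of all genes. It was 2 genes without cow 41, 3 without the Control cow 42 and 3 without the Control cow 43, beside 22.8%, 18.8% and 15% of all genes. Under B9 + B12 DDIT4 and CHAC1 did not overlap, beside 22.6% of all genes. CHAC1, the enzyme that breaks down glutathione, had liver levels of 5.91, 5.93 and 6.18 in Control and of 6.21 and 6.25 under B9 + B12. Its difference was 0.22 (SE 0.18, limma adjusted P = 0.683, exact permutation P = 0.2). With cow 38 left out 7 of the 8 genes no longer overlapped under B9 + B12, beside 74.5% of all genes, since a single array then remained. Without cow 32 it was 4 beside 46.6%, and without the Control cow 42 it was 4 beside 35.4%.

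By their brightest probes, ATF4, DDIT3 and ASNS overlapped with Control under every treatment in the liver. ATF4 levels were 14.51, 14.80 and 14.82 in Control, 14.43 to 15.36 under B9, 14.81 to 15.19 under B12 and 14.42 and 15.11 with both. DDIT3, the transcription factor also called CHOP, had levels of 10.90 to 11.26 in Control, 10.12 to 11.10 under B9, 11.20 to 11.89 under B12 and 10.55 and 10.91 with both. Its lowest level was again that of cow 57. The dimmer DDIT3 probe gave 9.30, 9.46 and 9.63 in Control and 9.77, 9.78, 9.91 and 10.41 under B12, without overlap. Its difference was 0.51 (SE 0.22, limma adjusted P = 1, exact permutation P = 0.0286). The dimmest of the 3 ATF4 probes gave 10.13, 10.14 and 10.24 in Control and 10.35 and 10.42 under B9 + B12, also without overlap, a difference of 0.21 (SE 0.23, limma adjusted P = 0.745, exact permutation P = 0.1). ASNS, which makes asparagine from aspartate and glutamine, had levels of 8.63 to 9.07 in Control, 8.73 to 9.50 under B9, 8.30 to 9.21 under B12 and 8.52 and 9.81 with both. Its highest levels, 9.81 and 9.50, were those of cows 32 and 57. The correlation with the median array correlation was 0.75 for DDIT3, -0.79 for ASNS and -0.76 for CHAC1 over the 12 liver arrays, in which cows 57 and 32 had the lowest array correlation. Whether array quality set these levels was not tested.

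Over the 8 genes the median log2 difference in the liver was 0.12 under B9, 0.33 under B12 and 0.13 under B9 + B12, where the medians over all genes were 0.0080, -0.00019 and 0.034. The differences of the 8 genes ranged from -0.95 to 0.38, from -0.42 to 0.75 and from -0.71 to 0.28.

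**Figure D2:**
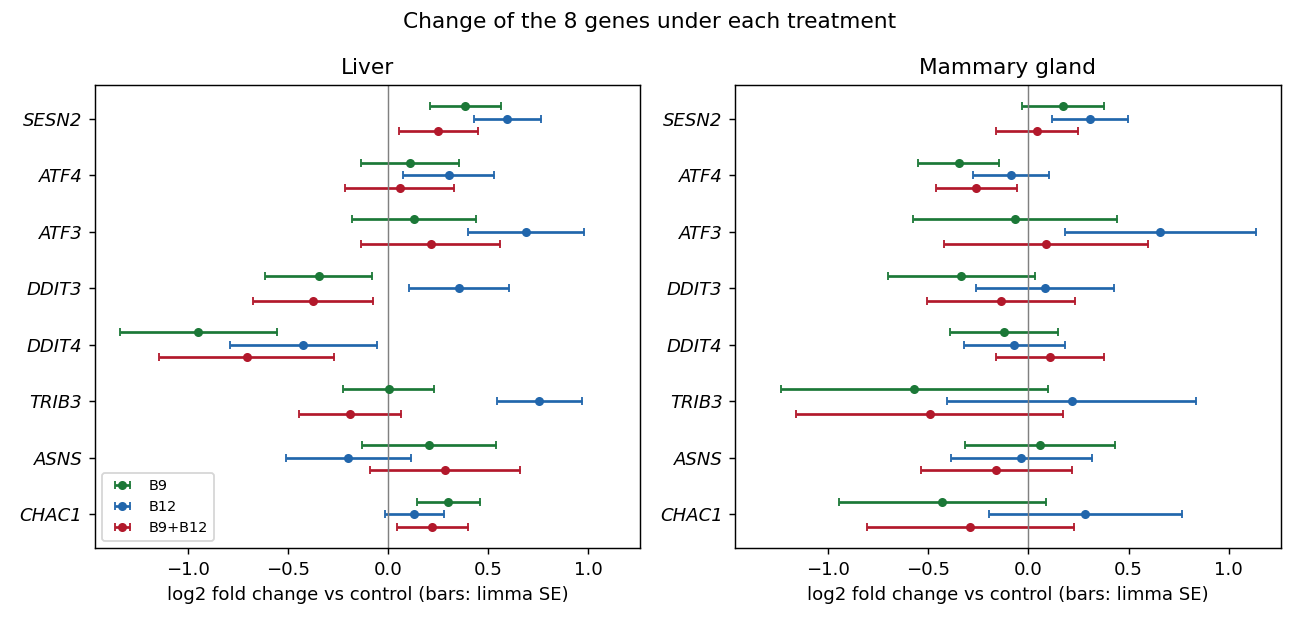
Log2 fold change of each gene as compared to Control (x axis) under B9, B12 and B9 + B12 in liver and mammary gland, with limma standard errors as bars. In the liver SESN2 (0.60) and TRIB3 (0.75) under B12 and DDIT4 (-0.95) under B9 lie farthest from 0 in units of their error, and in the mammary gland the bars of TRIB3, CHAC1 and ATF3 are the widest.

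In the mammary gland SESN2 was close to background. Its levels were 4.92, 5.17 and 5.25 in Control, 5.17, 5.32 and 5.36 under B9, 5.16, 5.20, 5.46 and 5.86 under B12 and 4.81, 5.08 and 5.56 under B9 + B12. The Control array of cow 42 and the B9 + B12 array of cow 32, the lowest in their groups, were not well above background. The differences were 0.17 (SE 0.20), 0.31 (SE 0.19) and 0.042 (SE 0.20), with limma adjusted P values of 1, 1.00 and 1. The difference under B9 + B12 was -0.16 without cow 38 and -0.055 without the Control cow 42, and that under B9 was -0.15 with the slide as a block and 0.074 without the Control cow 42. The difference under B12 was 0.16 without cow 36 and 0.090 with the slide as a block. With the scanner's processed signal it was 0.73 under B9 and 0.96 under B12. All groups overlapped, so that no direction can be given.

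By the brightest probe of each of the 8 genes the mammary arrays of every treated group overlapped with Control, beside 6.74%, 3.76% and 6.74% of all genes that did not under B9, B12 and B9 + B12. The median difference over the 8 genes was -0.23, 0.15 and -0.15. The interaction of B9 with B12 was called for 0 of the 8 genes and 0% of all genes, and 0 of 8 and 3.27% had an unadjusted limma P value under 0.05. Without the Control cow 42, 4 of the 8 genes no longer overlapped with Control under B9, beside 14.9% of all genes. With any other single array left out it was at most 2, for B9 without cow 57, beside 19.5%.

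The dimmest of the 3 TRIB3 probes did not overlap in the gland. It gave 5.54, 5.60 and 5.63 in Control, 5.08, 5.19 and 5.42 under B9, 5.08, 5.29, 5.48 and 5.52 under B12 and 4.93, 5.07 and 5.51 under B9 + B12, so that every treated array lay below every Control array. The differences were -0.36 (SE 0.16), -0.25 (SE 0.15) and -0.42 (SE 0.16), with limma adjusted P values of 1, 1.00 and 1 and exact permutation P values of 0.1, 0.114 and 0.1. It was well above background on all mammary arrays but that of cow 36 (B12). The brightest probe gave -0.57 under B9, 0.22 under B12 and -0.49 under B9 + B12, that is, the opposite direction under B12, and overlapped each time.

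Whether an effect differed between liver and gland was tested in 1 limma model over all 25 arrays. By the brightest probe it was called for 0 of the 8 genes under B9, B12 and B9 + B12, beside 0%, 0.00359% and 0% of all genes. At an unadjusted P value under 0.05 it was 0 of 8 in each case, beside 2.32%, 1.8% and 5.27%. The differences, mammary minus liver, ranged from -0.73 to 0.83 under B9, from -0.54 to 0.36 under B12 and from -0.51 to 0.82 under B9 + B12. Among the other probes the dimmest of TRIB3 gave -0.78 under B9 (SE 0.20) and -0.56 under B12 (SE 0.19), with limma adjusted P values of 0.997 and 1. The dimmer probe of DDIT4 gave 0.93 under B9 (SE 0.43) and 0.95 under B9 + B12 (SE 0.46), with limma adjusted P values of 0.997 and 0.744. These 4 had an unadjusted P value under 0.05, and none passed the correction.

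**Figure D3:**
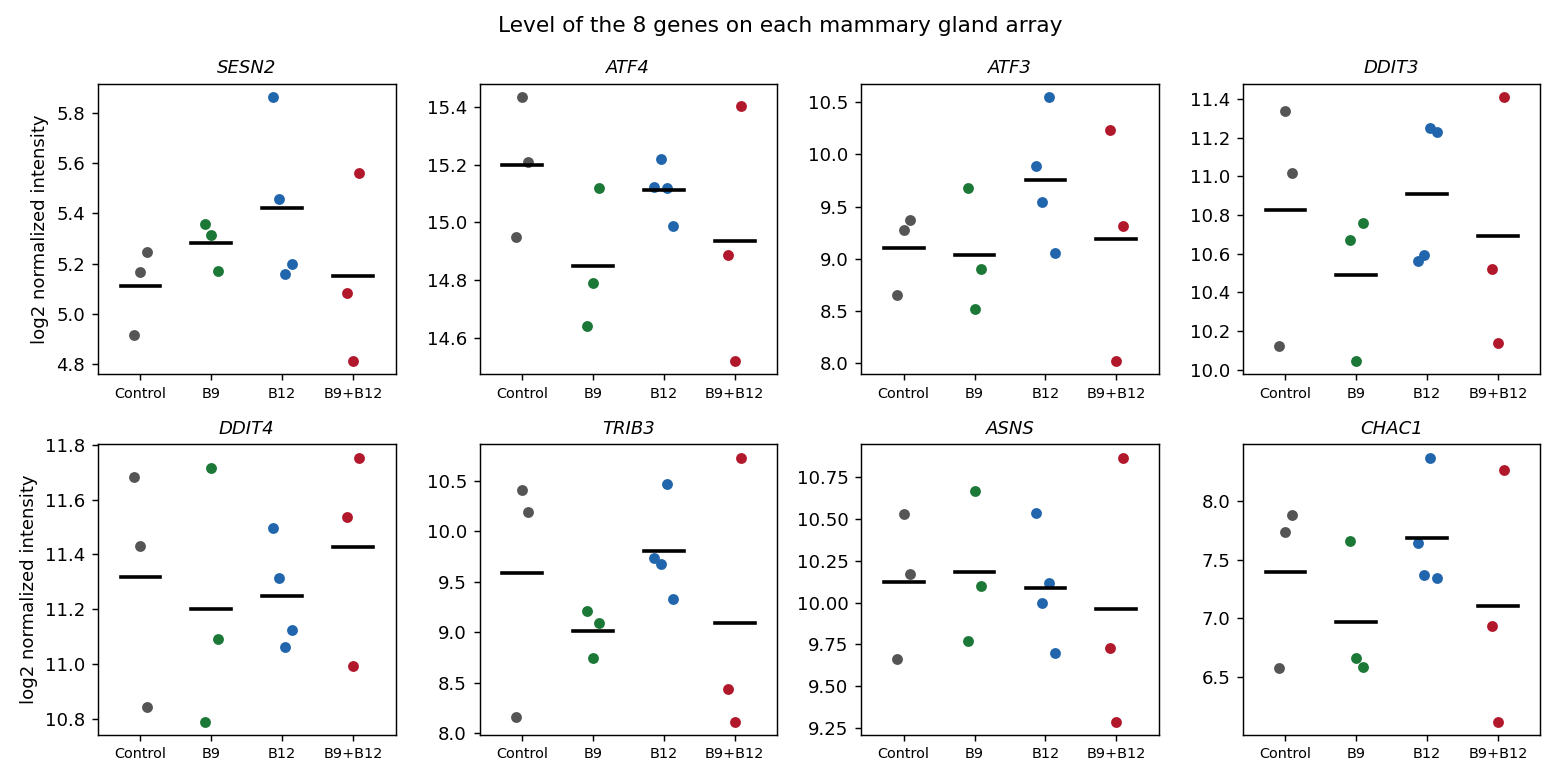
Log2 normalized intensity of the brightest probe of each gene (y axis) on the 13 mammary arrays, by treatment (x axis). Points are cows and bars are group means. TRIB3 spans 8.16 to 10.41 among the 3 Control cows and 8.11 to 10.73 among the 3 B9 + B12 cows, more than any distance between group means.

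In the mammary gland the largest differences lay among cows of the same treatment. TRIB3 had levels of 8.16, 10.19 and 10.41 in the Control cows, 8.75, 9.09 and 9.21 under B9, 9.33, 9.68, 9.73 and 10.46 under B12 and 8.11, 8.43 and 10.73 under B9 + B12. Its SD within treatment groups was 0.94 on the log2 scale, larger than that of 99.2% of the 17054 genes that were well above background on all mammary arrays, whose median was 0.22. CHAC1 had a within-group SD of 0.73 (percentile 98.1), ATF3 of 0.72 (98.0), ASNS of 0.53 (93.8) and DDIT3 of 0.51 (93.4). DDIT4 (0.37, percentile 83.6) and ATF4 (0.27, percentile 66.3) varied less. In the liver the same SD was 0.30 for TRIB3 (percentile 50.7) and 0.19 for CHAC1 (percentile 17.0), with a median of 0.30 over 18241 genes, and the largest was that of DDIT4 (0.54, percentile 87.8).

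Of the 5 genes with the widest spread, TRIB3, CHAC1, DDIT3 and ASNS had the same highest and lowest cow under B9 + B12, and ATF3 did not. CHAC1 had mammary levels of 6.58, 7.74 and 7.88 in the Control cows 42, 43 and 51, where TRIB3 was 8.16, 10.41 and 10.19. Both were lowest in cow 42, and their highest cows differed. Under B9 + B12, CHAC1 was 6.93, 6.12 and 8.26 in cows 31, 32 and 38, where TRIB3 was 8.43, 8.11 and 10.73. DDIT3 was 10.52, 10.14 and 11.41 in those 3 cows, and ASNS was 9.73, 9.29 and 10.87. Cow 38 was thus the highest of its group for all 4 genes and cow 32 the lowest. ATF3 was 10.23, 8.02 and 9.31 in cows 31, 32 and 38, with its highest level in cow 31, in which TRIB3 was low. Under B9 and under B12 the 4 genes did not share their highest and lowest cow. As deviations from the B9 mean, TRIB3 was highest in cow 39 (0.19), where ASNS was lowest (-0.41). ASNS was highest in cow 41 (0.49), where TRIB3 was lowest (-0.27). Under B12 TRIB3 was highest in cow 40 (0.66) and ASNS in cow 36 (0.45).

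**Figure D4:**
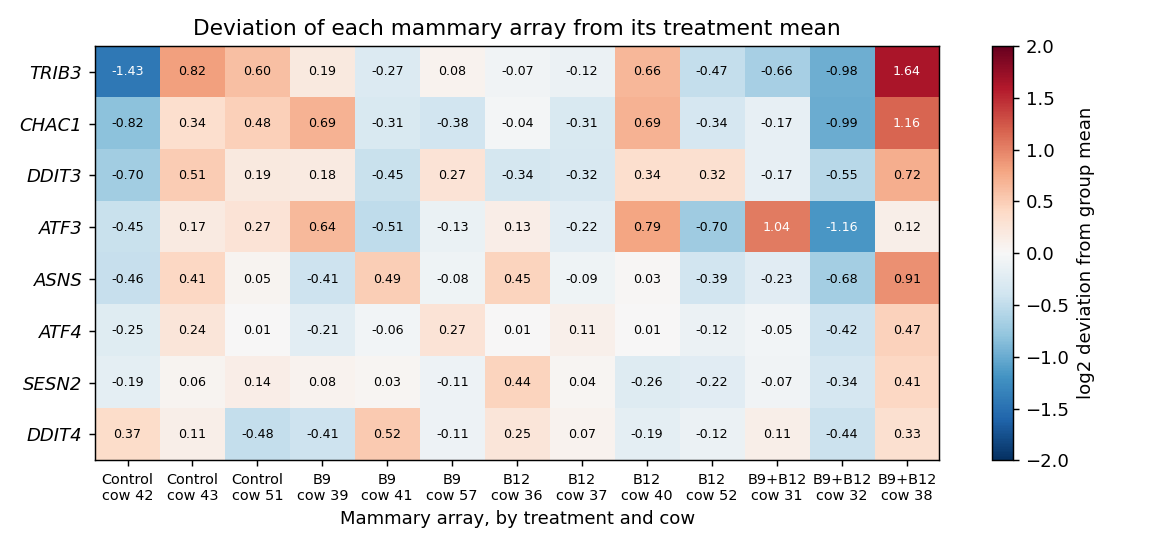
Log2 deviation of each mammary array (x axis, by treatment and cow) from the mean of its treatment group for the 8 genes (y axis), with red above and blue below the mean. Cow 38 is above its group mean for all 8 genes, with 1.64 for TRIB3, and cow 32 of the same treatment is below it for all 8, with -0.98.

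Treatment means were removed, and the deviations of the 13 mammary arrays were correlated for each pair of the 8 genes. Of the 28 pairs 24 had a correlation above 0, with a median of 0.56. In the liver 15 of 28 were above 0, with a median of 0.0064. The highest correlation was that of TRIB3 with CHAC1 in the mammary gland (r = 0.90, Spearman's rho = 0.83). The exact permutation of arrays within treatment groups gave P = 0.00231 for r and P = 0.00270 for rho, and over the 56 pairs of both tissues the Benjamini-Hochberg adjusted values were 0.0972 and 0.0756. Without the 2 arrays farthest from the median of TRIB3, r was 0.84. In the liver ATF3 with DDIT4 (r = 0.64, rho = 0.75) had exact permutation P values of 0.00347 and 0.00231 and the same adjusted values, 0.0972 and 0.0756. In the gland TRIB3 also followed DDIT3 (r = 0.85) and ATF4 (r = 0.79), with exact permutation P values of 0.0150 and 0.0231 and adjusted values of 0.169 and 0.185. With rho these pairs had 0.81 and 0.73, and without the 2 farthest arrays r was 0.74 and 0.59. None of the 56 pairs passed 0.05 after adjustment.

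SESN2 in the gland had its highest r with ASNS (r = 0.77, exact permutation P = 0.0127, rho = 0.63, exact permutation P = 0.0455, adjusted values 0.169 and 0.227). By rho CHAC1 came slightly higher (0.64). Without the 2 arrays farthest from the median of SESN2, the r of SESN2 with ASNS was 0.58. In the liver the same pair had r = 0.80 (exact permutation P = 0.0220, rho = 0.78, exact permutation P = 0.0336, adjusted values 0.185 and 0.227), the highest of the 28 liver pairs, and 0.82 without the 2 farthest arrays. In the gland DDIT4 held all 4 pairs below 0, with correlations of -0.22 with DDIT3, -0.092 with CHAC1, -0.071 with ATF3 and -0.047 with TRIB3.

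Both mammary arrays of slide 7, the Control cow 42 and cow 31 under B9 + B12, had low TRIB3 (8.16 and 8.43), and 3 of the 4 arrays of slide 6 were above 10 (10.19, 10.46 and 10.73). Within slide 5 TRIB3 was 10.41, 9.33 and 8.11. With slide means removed as well, which left 5 residual degrees of freedom, 27 of the 28 pairs were above 0 with a median of 0.70, and TRIB3 and CHAC1 had r = 0.96. Over the 13 mammary arrays TRIB3 had a correlation of -0.33 with the signal over background, and CHAC1 of -0.58. Mammary secretory markers summed to 20.9 on every mammary array, which quantile normalization of such bright genes nearly fixes, so that it does not show equal cell numbers. The adipocyte markers summed to 15.8 to 16.5, the endothelial and stromal markers to 14.3 to 15.5 and the leukocyte markers to 11.01 to 11.6. Their part in the pattern was not tested.

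The wider pathway was then set against TRIB3 in the same way, as a description without a test. Of the detected genes of all kinds, 7.79% had a correlation above 0.5 with TRIB3 within treatments in the mammary gland, with a median of -0.0015. Of 16 cytosolic aminoacyl-tRNA synthetases, which load amino acids on their tRNAs, 10 were above 0.5, and the median was 0.60. GARS1, the glycine enzyme (r = 0.81, rho = 0.77), AARS1 for alanine (r = 0.83, rho = 0.71) and YARS1 for tyrosine (r = 0.85, rho = 0.75) were among them. QARS1, the glutamine enzyme, had -0.45. Of 6 amino acid transporters 4 were above 0.5, with a median of 0.70. SLC7A5, which brings in leucine and other large neutral amino acids, had r = 0.87 (rho = 0.83), and SLC1A4, a carrier of small neutral amino acids, had r = 0.84 (rho = 0.82).

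Of 14 enzymes and factors known as ATF4 targets, 7 were above 0.5, with a median of 0.47. They were PHGDH, PSAT1 and PSPH, the 3 steps of serine synthesis, the folate enzyme MTHFD2, the proline enzyme PYCR1, the cysteine enzyme CTH and the transcription factor CEBPG, with r from 0.55 for CTH to 0.85 for PYCR1. PSPH had a within-group SD of 0.90, at percentile 99.1 of the detected genes. SHMT2 (-0.26), EIF4EBP1 (-0.21) and NUPR1 (-0.16) had correlations below 0. With slide means removed as well, 10 of the 16 synthetases, 5 of the 6 transporters and 7 of the 14 targets were above 0.5, beside 15.1% of all detected genes.

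The other lists were set against TRIB3 in the same way. Of 21 genes of the sestrin and mTORC1 pathway other than SESN2 and DDIT4, 0 were above 0.5 with TRIB3, and of 8 genes of the unfolded protein response 1 was, XBP1 (0.61). Of 7 immediate early genes 0 were, and 5 of the 7 were in the top 10% of within-group spread. Of 9 NRF2 and p53 targets 2 were, CDKN1A (0.85) and GCLM (0.70), and of 9 eIF2alpha kinases and regulators 3. With slide means removed as well, 3 of the 7 immediate early genes (median 0.44), 1 of the 21 sestrin and mTORC1 genes, 1 of the 8 unfolded protein response genes, 2 of the 9 NRF2 and p53 targets and 1 of the 9 kinases and regulators were above 0.5, beside 15.1% of all detected genes. In the liver 5.34% of all detected genes had a correlation with TRIB3 above 0.5. Of 8 genes of the unfolded protein response 2 were above it, HSPA5 (0.80) and HERPUD1 (0.77). So were 2 of 10 NRF2 and p53 targets, 2 of 22 sestrin and mTORC1 genes, 0 of 7 immediate early genes and 0 of 9 kinases and regulators. The 14 ATF4 targets had a median of 0.11 and none above 0.5. The 16 synthetases had a median of 0.25 with 3 above 0.5, and the 5 detected transporters a median of 0.20 with 2 above 0.5.

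Levels are given for 1 gene of each of these 3 lists, taken after the values were seen from those with a correlation above 0.5. SLC7A5 was 12.91, 13.44 and 13.65 in the Control cows 42, 43 and 51, and 12.92, 12.81 and 14.15 in the B9 + B12 cows 31, 32 and 38. GARS1 was 11.35, 12.37 and 12.09 in those Control cows and 11.34, 10.80 and 12.65 in those B9 + B12 cows. PHGDH was 10.14, 11.11 and 10.57, and 10.40, 10.17 and 11.20. Cow 42 was the lowest Control and cow 38 the highest B9 + B12 array for each of the 3 genes. The same cows held the largest deviations of TRIB3 (-1.43 and 1.64). Genes taken for a correlation with TRIB3 tend to share its extreme cows, so that this is no independent evidence.

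The genes most like SESN2 were ranked by Pearson's r over the arrays of a tissue, among genes with a symbol that were well above background on all of them, as a description without a test. In the liver, over 12 arrays and 8951 genes, they were RRS1, a ribosome assembly factor (0.87), ACBD6 (0.86), CHCHD5 (0.85), SERTAD1 (0.83) and the p38 kinase MAPK11 (0.82). Of the other members ATF3 (0.66) and TRIB3 (0.63) came nearest in the liver, and DDIT4 was at -0.32. In the mammary gland, over 13 arrays and 8476 genes, they were the RNA helicase DDX21 (0.88), MTHFD2 (0.88), CDC26 (0.86), MOB4 (0.85) and GATA2 (0.84). ASNS (0.69) came nearest among the members. Without the 2 arrays farthest from the median of SESN2, the values of the 5 mammary genes fell to between 0.65 and 0.77 and that of ASNS to 0.56. In the liver they were 0.70 to 0.85 for the 5 genes, 0.44 for ATF3 and 0.58 for TRIB3. SESN2 was not well above background on 2 of the 13 mammary arrays. All arrays of a treatment share that treatment, so that these values hold treatment and cow differences together.

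The pathway lists were also compared with Control by limma, and 0 genes of any list were called in any of the 6 comparisons. In the liver under B9 + B12, 4 of the 14 ATF4 targets had an unadjusted P value under 0.05 and all 4 were higher, beside 6.08% of all genes in either direction. The median over the 14 was 0.37. PYCR1 was 8.88, 9.36 and 9.58 in Control and 10.68 and 10.88 under B9 + B12, a difference of 1.51 (SE 0.51). The study had picked PYCR1 in this comparison from the same arrays, so that its direction is no independent evidence. VLDLR, a receptor for triglyceride-rich lipoproteins, was 5.85, 6.23 and 6.28 in Control and 6.94 and 7.88 under B9 + B12, a difference of 1.29 (SE 0.27). SHMT2, a mitochondrial serine and folate enzyme, differed by 0.57 (SE 0.25) and EIF4EBP1, a repressor of translation under mTORC1, by 0.50 (SE 0.21), and all 4 genes had a limma adjusted P of 0.664. Without the arrays of cows 57 and 32, which left 1 B9 + B12 array, the median was 0.13. PYCR1 then differed by 1.41, VLDLR by 0.82, SHMT2 by 0.41 and EIF4EBP1 by 0.24. Cell type markers also differed on the B9 + B12 liver arrays without overlap, beside 22.6% of all genes that did not overlap. They were 1 of the 4 macrophage and leukocyte markers and 2 of the 4 endothelial and stromal markers, all higher. Of the 7 hepatocyte markers 1 was higher and 2 were lower without overlap. CD14 of macrophages differed by 0.66 (SE 0.23), PECAM1 of endothelium by 0.90 (SE 0.30) and FGB of hepatocytes by -0.67 (SE 0.22), each with a limma adjusted P of 0.664. The 4 macrophage and leukocyte markers on the array summed to 14.94 in cow 32 and 14.15 in cow 38, as compared to 14.06 to 14.22 in Control. The 4 endothelial and stromal markers summed to 14.57 and 14.39, as compared to 13.99 to 14.39 in Control. Of the 7 hepatocyte markers FGB alone had an unadjusted P value under 0.05. Their median was -0.024, and they summed to 20.73 and 20.83, as compared to 20.76 to 20.86 in Control. The part of other cell types in the pathway differences was not tested. On the same arrays 1 of the 10 NRF2 and p53 targets was higher and 1 lower than Control without overlap, beside 22.6% of all genes. The lower one was GCLM, a subunit of the enzyme that starts glutathione synthesis (-0.73, SE 0.30, limma adjusted P = 0.664). With cow 38 as the single B9 + B12 array it differed by -0.27.

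In the liver under B12, where SESN2, TRIB3 and ATF3 were highest, 0 of the 14 ATF4 targets, 0 of the 6 transporters, 0 of the 16 synthetases and 0 of the 10 eIF2alpha kinases and regulators had an unadjusted P value under 0.05, beside 1.86% of all genes. Their medians were 0.023, 0.11, 0.067 and -0.012. JUN, an immediate early gene and a dimer partner of ATF3, was 9.75, 9.80 and 10.09 in Control and 10.26, 10.65, 10.80 and 10.88 under B12, without overlap. Its difference was 0.77 (SE 0.20, limma adjusted P = 1). The list held 7 immediate early genes, of which 2 had an unadjusted P value under 0.05, both higher, beside 1.86% of all genes. JUN alone of the 7 did not overlap, beside 4.99% of all genes. IER2 was the other, with 0.67 (SE 0.21, limma adjusted P = 1). The median over the 7 was 0.55 and the lowest was FOSB, with -1.24 (SE 0.67). The summed level of the 7 was 13.65 to 14.48 on the B12 liver arrays, within the 13.53 to 15.40 of Control. IER2 and FOSB were named after their values were seen. With both vitamins JUN was 10.42 and 10.69, a difference of 0.67 (SE 0.24, limma adjusted P = 0.664). Of the 22 sestrin and mTORC1 genes 0 had an unadjusted P value under 0.05 in the liver under B9, B12 or B9 + B12, beside 3.15%, 1.86% and 6.08% of all genes. In the liver under B9 EIF2AK3, the kinase that senses unfolded proteins, differed by -0.42 (SE 0.19) and MDM2, the p53 regulator, by -1.19 (SE 0.46), both with a limma adjusted P of 0.891. Without the arrays of cows 57 and 32 these differences were -0.46 and -0.60.

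In the mammary gland 0 of the ATF4 targets, transporters and synthetases had an unadjusted P value under 0.05 in any comparison. Their medians ranged from -0.024 to 0.017, from -0.13 to -0.025 and from -0.12 to 0.014. PDIA4, a protein-folding enzyme of the endoplasmic reticulum, differed by -0.44 under B9 + B12 (SE 0.13, limma adjusted P = 1), as 1 of 8 genes of the unfolded protein response beside 1.99% of all genes. GCLM differed by 0.30 under B9 (SE 0.10, limma adjusted P = 1), as 1 of the 10 NRF2 and p53 targets beside 2.56%. Of the 22 sestrin and mTORC1 genes 2 had an unadjusted P value under 0.05 with B12, beside 2.37%. RRAGA, a Rag GTPase that recruits mTORC1 to the lysosome, differed by 0.16 (SE 0.070) without overlap. SESN1, a paralogue of SESN2 named after its values were seen, differed by -0.91 (SE 0.31) and overlapped with Control. Both had a limma adjusted P of 1.00.

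Levels were compared between the tissues after all 25 arrays had been normalized together. By the rule with a 2-fold change ASNS, ATF4, CHAC1 and DDIT3 differed, that is 4 of 8 members, beside 19.3% of all genes. All 4 were higher in the mammary gland. ASNS was 7.95 to 9.22 in the liver and 10.03 to 11.68 in the gland, a difference of 2.37 (SE 0.19, limma adjusted P = 6.38e-10) or 5.18-fold, and it was higher in 12 of 12 cows. ATF4 was 13.42 to 14.40 in the liver and 15.26 to 16.05 in the gland, a difference of 1.84 (SE 0.11). CHAC1 was 6.39 to 6.83 in the liver and 6.993 to 9.1002 in the gland, a difference of 1.53 (SE 0.20). The tissues did not overlap for these 3 genes. DDIT3 differed by 1.24 (SE 0.18), and it too was higher in the gland in 12 of 12 cows.

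SESN2 was lower in the gland. It was 6.51 to 7.15 in the liver and 6.04 to 6.79 in the gland, a difference of -0.44 (SE 0.068, limma adjusted P = 1.05e-05), with the lower value in the gland in 12 of 12 cows. DDIT4 was 0.66 higher in the gland (SE 0.17, limma adjusted P = 0.00264), in 9 of 12 cows. ATF3 (0.30, limma adjusted P = 0.269) and TRIB3 (-0.21, limma adjusted P = 0.543) did not pass.

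**Figure D5:**
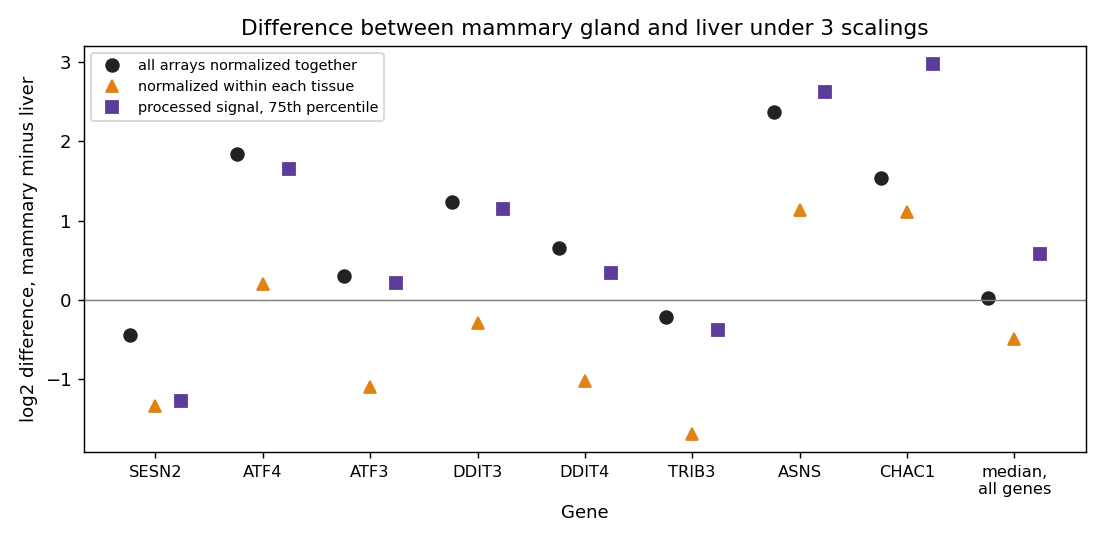
Log2 difference between mammary gland and liver (y axis) for each gene and for the median of all genes (x axis) under 3 scalings, shown as circles, triangles and squares. ASNS, CHAC1 and ATF4 lie above 0 and SESN2 and TRIB3 below 0 under each scaling, while ATF3, DDIT3 and DDIT4 fall on either side of 0.

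These differences depended on the scaling. The median of all genes was 0.032 with all arrays normalized together, -0.49 with each tissue normalized on its own and 0.58 with scaling of the scanner's processed signal by its 75th percentile. Relative to that median ASNS was 2.34, 1.62 and 2.05, CHAC1 1.502, 1.61 and 2.39, ATF4 1.81, 0.69 and 1.07, and DDIT3 1.21, 0.21 and 0.58. SESN2 was -0.47, -0.84 and -1.84, and TRIB3 -0.24, -1.19 and -0.96. ATF3 (0.27, -0.61 and -0.36) and DDIT4 (0.63, -0.53 and -0.24) had no settled direction. ASNS and CHAC1 kept their call in all 30 alternatives.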

How the data were processed

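Per the labels and the methods, the authors hybridized Cy3-labelled RNA to 1-colour Agilent bovine arrays. They extracted them with Feature Extraction 10.7.3.1 per the file headers (9.1 in the submitters' processing notes). The deposited scanner intensity values are not normalized. The deposited log2 values matched normexp with an offset of 16 and quantiles within tissue, within 0.001 for 99.7% of liver and 99.6% of mammary values, and was used for all treatment comparisons. Tissue levels came from the median intensity (normexp offset 50, quantiles over all arrays).

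Limma 3.58.1 (R 4.3.3, data.table in version 1.17.8) was fitted per tissue and P values were adjusted by Benjamini-Hochberg across the whole array. Calls needed an adjusted P of at most 0.05 and 2-fold. The script was tested on simulated data. Fold changes are given for SESN2 throughout, and for other genes with an unadjusted P under 0.05 or without overlap with Control. Of a pathway list, up to 4 genes meeting both may be named. The members and lists were chosen with earlier results of these data known. Of the probes 53.9% had a symbol. The array's annotation belongs to another genome build than the reference, so no positions are given. The number of arrays limits the precision. Alternatives covered values, background, dim probes (kept 36967 liver and 33566 mammary probes), slide, cow, weights, probes, Cyber-T (window 101, confidence 10) and each array left out.

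The deviations of the tissues of a cow were correlated over all genes. The correlation was -0.25 to 0.21 (median 0.037) and above 0.1 in 2 of 12 cows, and the pairing comes from the cow numbers in the labels.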

Additional observations from a re-analysis of the deposited data

Results flagged for a closer look

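TRIB3 on the 4 liver arrays of the B12 cows had 1 array far from the others. Cow 36 was at 11.26 where cows 52, 37 and 40 were at 11.77, 11.79 and 11.85, and its gap to the nearest array was 0.864 of the range of the group; this exceeds Dixon's critical value for 4 samples. It was 1 of 16 groups examined, and chance gives such a value in about 1 of 20 groups. Without the B12 array of cow 36 the difference of TRIB3 from Control was 0.89 instead of 0.75 on the log2 scale, and cow 36 was still above every Control array.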

How the results depend on the processing

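The count of 0 called members did not change in any treatment comparison, interaction or effect difference under any alternative that was run, Cyber-T included. The SESN2 difference in the liver under B12 ranged from 0.44 to 0.87 over 19 alternatives, with limma or Cyber-T adjusted P values from 0.293 to 1, and that of TRIB3 from 0.56 to 0.90. In the mammary gland SESN2 turned to -0.153 under B9 with the slide as a fixed block, and under B9 + B12 it ranged from -0.162 to 0.211 with 1 array left out. With each tissue normalized on its own 6 of the 8 members were called between tissues. ATF3 (-1.10) and DDIT4 (-1.02) turned and were called as lower in the gland, SESN2 (-1.33) and TRIB3 (-1.68) gained a call, as SESN2 did with the processed signal (-1.27), DDIT3 (-0.284) turned and lost its call, and ATF4 (0.20) lost its call. With cow as a replicate block, random or fixed, 4 of the 8 members were called between tissues, and the paired fit gave 2.37 and 2.40 for ASNS. The block changed no other call. The correlation of TRIB3 with CHAC1 in the gland was 0.83 to 0.95 with 1 array left out. The alternatives without cows 57 and 32, Cyber-T on scanner values and those of the correlation were chosen after seeing the data. With at most 4 cows in a group, small differences cannot be shown, and SESN2 in the gland was near background.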
